A study of Phycomyces blakesleeanus with 24 samples.

Results

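Phycomyces blakesleeanus, a filamentous fungus that raises light-responsive aerial stalks called sporangiophores, carries 3 gene copies with the symbols NDUFA4 (PHYBLDRAFT_139755), NDUFA4_2 (PHYBLDRAFT_183007) and NDUFA4_3 (PHYBLDRAFT_160885). The copies were chosen by symbol, with their light-dark folds in these data already known, so the folds below are a description and no test was run on them. All 3 copies were among the 14410 genes measured. RNA was sequenced from the ΔL51 strain, which the labels call a photoreceptors mutant, and from the wild type, each as sporangiophores and as mycelium, the network of feeding hyphae. All cultures were grown on PDA, in light or in darkness, and the 24 libraries fell into 8 groups of 3. The study dropped 4 libraries that were more dispersed than their replicates, after which 3 light and 2 dark libraries remained for mutant sporangiophores and 2 light and 2 dark for wild type sporangiophores. Mutant mycelium kept 3 light and 3 dark libraries, and wild type mycelium 3 light and 2 dark. The labels give neither the mutated genes of ΔL51 nor the length or strength of the light. No direct comparison of RNA levels between the strains was analysed here, only their light-dark folds, so the mutation was not checked.

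NDUFA4 is a small protein of the inner mitochondrial membrane. It was named as a subunit of complex I, the NADH dehydrogenase that passes electrons into the respiratory chain, and in mammalian cells it was later assigned to complex IV, the cytochrome c oxidase that passes them to oxygen. In human cells a paralogous protein can take its place in complex IV. Which complex the Phycomyces proteins belong to was not tested, and the copies are known here by symbol alone. Protein, transcript and promoter sequences of the copies were not used here, so their likeness to one another and the reads they may share could not be assessed.

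The authors' deposited tables, of which there is 1 for each light-dark comparison, give a log2 fold change, an average log2 CPM (a gene's share of the reads, scaled to library size, on a log2 scale), a likelihood ratio and a false discovery rate (FDR) for each gene. A gene is called here when the authors' FDR was under 0.05, and a positive fold is taken to mean more RNA in light, as the tables are titled light against dark. The title of the mutant mycelium table names its light group dL51 and its dark group dL5, a strain name that no label carries, and it is taken here as ΔL51. No value per library enters, which leaves the depth unknown and gives no spread between replicates. In its place stands an approximate standard error (SE) of the log2 fold, which is its size divided by the square root of its likelihood ratio. RNA came from bulk samples, in which fewer cells of a type and less RNA per cell cannot be told apart. No markers of mycelium or sporangiophores were fixed, and the labelled structure was not checked. The average log2 CPM is not scaled to transcript length, and the copies are therefore not ranked by level.

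The 3 copies were called in different sets of tables, a difference that was not tested. In mutant sporangiophores NDUFA4 and NDUFA4_3 fell in light, and NDUFA4_3 rose in light in those of the wild type. NDUFA4_3 also fell in mutant mycelium, and NDUFA4_2 fell in wild type mycelium. These were 5 calls among 12 values in the authors' deposited tables, and no table called all 3 copies. In the authors' deposited table for mutant sporangiophores, 2 of the 3 copies were called lower and 0 higher, where 12.3% of all genes were called lower and 3.31% higher. In that for wild type sporangiophores, 1 copy was called higher and 0 lower, beside 7.23% of all genes higher and 1.18% lower. In mutant mycelium 1 copy was called lower and 0 higher, beside 0.576% of all genes lower and 0.541% higher. Wild type mycelium had 1 copy called lower and 0 higher, beside 4.18% of all genes lower and 9.86% higher. Since the copies were picked with these results known, nothing is read from their counts against the background.

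**Figure D1:**
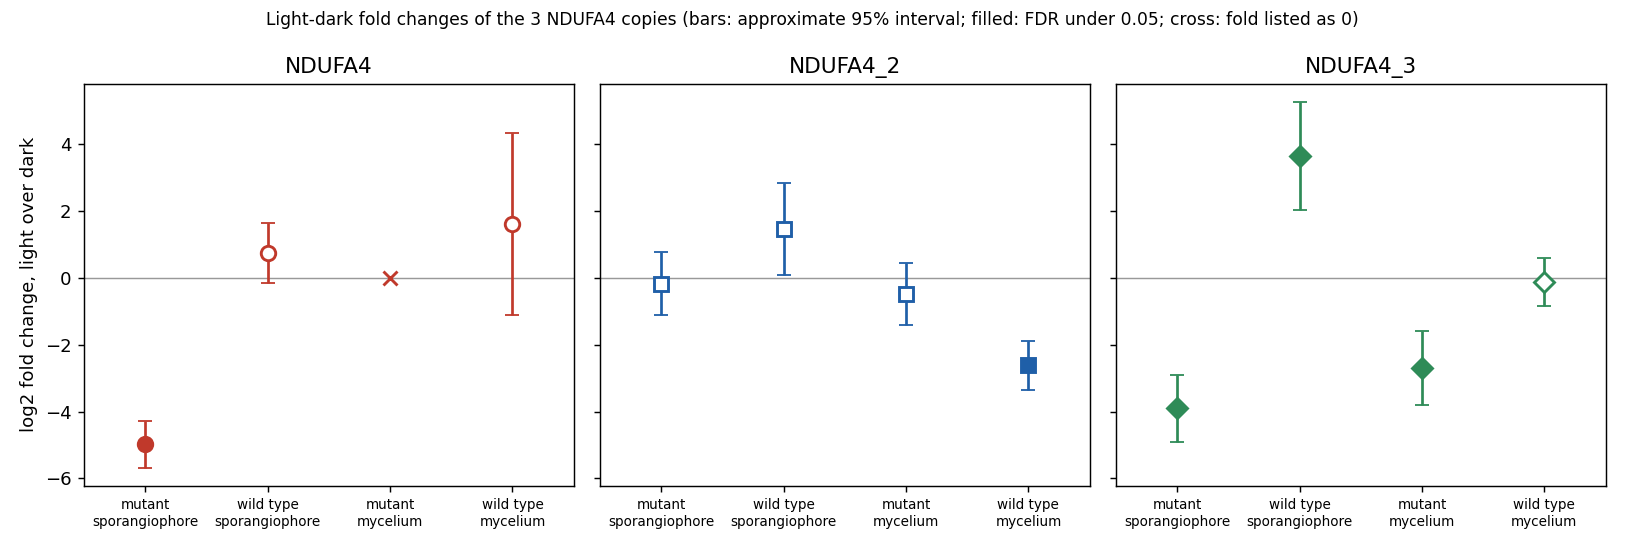
The log2 fold change of light over dark (vertical axis) is plotted for each copy in the 4 comparisons, with bars for the approximate 95% interval, filled symbols for an FDR under 0.05 and a cross for a fold listed as 0. NDUFA4 lies at -4.97 in mutant sporangiophores, NDUFA4_2 at -2.61 in wild type mycelium, and NDUFA4_3 at -3.90 in mutant and 3.65 in wild type sporangiophores.

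The split of calls in the tables depended on how folds were centred. The median log2 fold of genes with a fold other than 0 was 0.39 in wild type mycelium and lay between -0.05 and 0.08 in the others. With folds set relative to these medians, 828 genes were higher and 1235 lower in wild type mycelium, in place of 1421 and 603. In mutant mycelium the same step gave 55 higher and 100 lower in place of 77 and 82. With a trend of fold on expression level removed, 637 genes were higher and 1374 lower in mutant sporangiophores (477 and 1779 without this step), 405 and 223 in wild type sporangiophores (1042 and 170) and 991 and 918 in wild type mycelium. The 5 calls of the copies kept their direction and their call under both steps.

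NDUFA4 was called lower in light in the mutant's sporangiophores. The authors' deposited table gave it a log2 fold of -4.97 there, which is 31.4-fold lower in light (approximate SE 0.36, approximate 95% interval -5.67 to -4.27, FDR 1.3e-40). Of the 1311 other genes whose average log2 CPM lay within 0.25 of the 5.86 of NDUFA4, 0 had a lower fold in that table, and the 5th and 95th percentiles of their folds were -1.77 and 0.62. In wild type sporangiophores the authors' deposited table gave NDUFA4 a log2 fold of 0.74 (approximate SE 0.46, FDR 0.407), an interval of -0.15 to 1.63 that spans no change. This value stood above 86.8% of the same 1311 genes. Across the 4 tables its folds spanned 6.58 log2 units, from -4.97 in mutant sporangiophores to 1.61 in wild type mycelium.

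In mycelium, NDUFA4 had unusual entries for a gene of its average level. In mutant mycelium the authors' deposited table listed its fold as exactly 0, with a likelihood ratio of 0 and an FDR of 1. That table listed 2793 of 14242 genes with a fold of 0, and their median log2 CPM was 2.29. NDUFA4, at 6.72, had the highest average level of all 2793. The next, PHYBLDRAFT_176162, was at 5.29. Of 1944 genes at or above the level of NDUFA4 in that table, NDUFA4 was the 1 gene listed at 0. The average is taken over the libraries of the fit, which need not be those of the comparison. The table for wild type mycelium listed 3193 genes at 0, with a median log2 CPM of 2.56. Those for sporangiophores listed 9 (wild type) and 0 (mutant). Whether any reads of NDUFA4 were counted in mutant mycelium was not tested, so its 0 is not read as a lack of light response. In wild type mycelium the authors' deposited table gave a log2 fold of 1.61 with an approximate SE of 1.39 (interval -1.11 to 4.34, FDR 0.550), which is 1.23 relative to the table median. The median approximate SE of the 1311 genes near its level was 0.43 there, and 97.6% of them had a smaller one than NDUFA4, so the direction of light in wild type mycelium is not settled for this copy. In sporangiophores the SE of NDUFA4 was 0.36 in the mutant and 0.46 in the wild type, against medians near its level of 0.28 and 0.32.

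**Figure D2:**
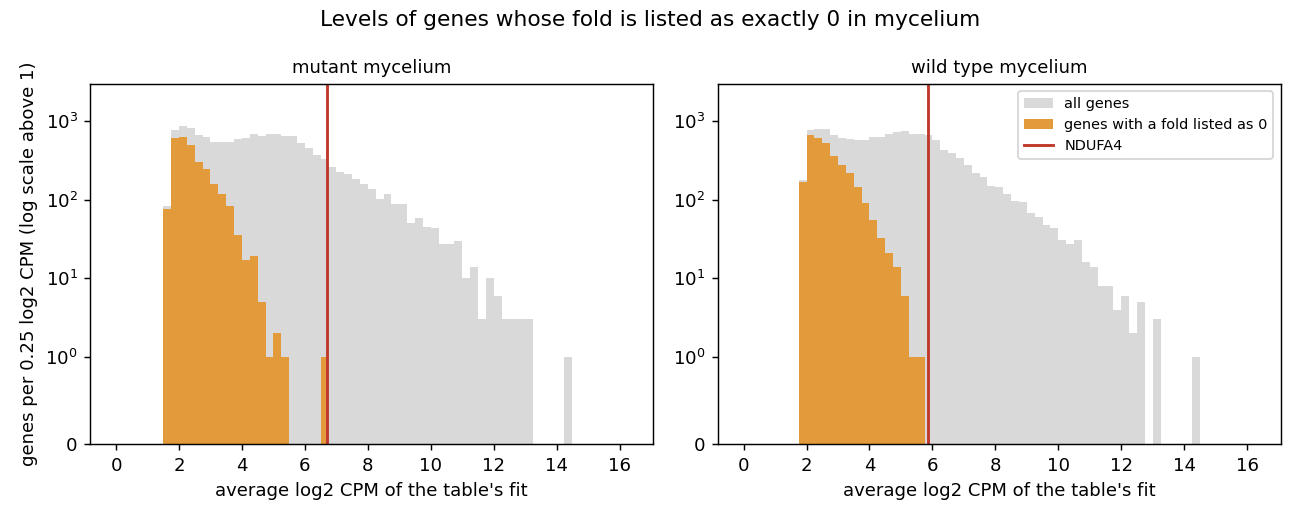
The number of genes (vertical axis, log scale above 1) is plotted by average log2 CPM for mutant mycelium on the left and wild type mycelium on the right, with all genes in grey, genes with a fold listed as 0 in orange and NDUFA4 as a red line. In mutant mycelium NDUFA4, at 6.72, stands apart above the other genes listed at 0, which end at 5.29, and in wild type mycelium, where its fold was 1.61, the genes listed at 0 end at 5.70, below its level of 5.86.

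The average level of NDUFA4 also depended on the fit. The tables for wild type mycelium and for sporangiophores of both strains hold the same average log2 CPM for each of 14410 genes, whereas 0 of 14162 shared genes have the same value in the mutant mycelium table. NDUFA4 was at 6.72 in the mutant mycelium fit and at 5.86 in the other, 0.86 higher, while the median gene was -0.22 in the same difference. That shift was larger than in 99.9% of the 14162 shared genes. NDUFA4_3 shifted by 0.27, above 98.3% of genes, and NDUFA4_2 by 0.05, above 86.7%. The libraries of each fit are not given in the sources used here. The tables that share their averages compare different libraries, so the shared average is not the level within a comparison. Genes near the level of a copy are therefore matched on this average and not on their level in the compared libraries.

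NDUFA4_2 was called lower in light in wild type mycelium. There the authors' deposited table gave a log2 fold of -2.61, or 6.10-fold lower in light (approximate SE 0.37, interval -3.34 to -1.87, FDR 4.9e-10). Relative to the median fold of that table it was -3.00. Among the 147 other genes within 0.25 of its average log2 CPM of 9.06, 0 had a lower fold, and the 5th percentile of their folds was -1.44. In mutant mycelium the authors' deposited table gave it -0.48 (approximate SE 0.48, FDR 0.846), which stood above 31.2% of the 157 genes near its level.

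In sporangiophores NDUFA4_2 was not called in either strain, at an average level of the fit where many other genes were. In mutant sporangiophores the authors' deposited table gave -0.17 (approximate SE 0.48, FDR 0.873), while 88 of the 147 genes near its level were called lower and 0 higher. The value turned to 1.13 once the trend of fold on expression level was removed (adjusted p = 0.105), so no direction is given for it. In wild type sporangiophores the authors' deposited table gave 1.46 (approximate SE 0.70, interval 0.09 to 2.83, FDR 0.225), while 73 of the 147 genes were called higher and 0 lower. Its SE there was larger than in 98.6% of those genes, whose median was 0.40, and the unadjusted p was 0.0369 in the authors' deposited table. The interval covers the median fold of 1.13 of those genes as well as values close to no change. With the trend on expression level removed it was 0.25 (adjusted p = 0.916).

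NDUFA4_3 was called in 3 of the 4 tables, with opposite directions in the sporangiophores of the strains. In mutant sporangiophores the authors' deposited table gave a log2 fold of -3.90, or 15.0-fold lower in light (approximate SE 0.52, interval -4.91 to -2.89, FDR 1.4e-12). In wild type sporangiophores it gave 3.65, or 12.6-fold higher in light (approximate SE 0.83, interval 2.03 to 5.27, FDR 4.2e-04, authors' deposited table). Both intervals lie on their own side of no change. With an F distribution in place of the chi-square one, the adjusted p was 2.4e-04 in mutant and 0.0351 in wild type sporangiophores. Of the 729 genes within 0.25 of its average log2 CPM of 6.75, 0 had a higher fold in wild type sporangiophores and 11 a lower one in mutant sporangiophores.

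The folds of NDUFA4_3 in sporangiophores also had some of the largest approximate SEs at its level. Its SE was larger than in 99.0% of the 729 genes in mutant sporangiophores and than in 99.9% in wild type sporangiophores. The median SE of these genes was 0.27 in the mutant and 0.32 in the wild type. As this SE is computed from the fold, its rank is not separate from that of the fold. In mutant mycelium the authors' deposited table gave NDUFA4_3 a log2 fold of -2.69, or 6.46-fold lower in light (approximate SE 0.56, interval -3.79 to -1.59, FDR 6.4e-04). This was the lowest fold among it and the 475 genes near its level of 7.02 in that table. This call did not hold with an F distribution in place of the chi-square one (adjusted p = 0.165). In wild type mycelium it had -0.12 (approximate SE 0.36, interval -0.83 to 0.59, FDR 1, authors' deposited table), or -0.51 relative to the table median.

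**Figure D3:**
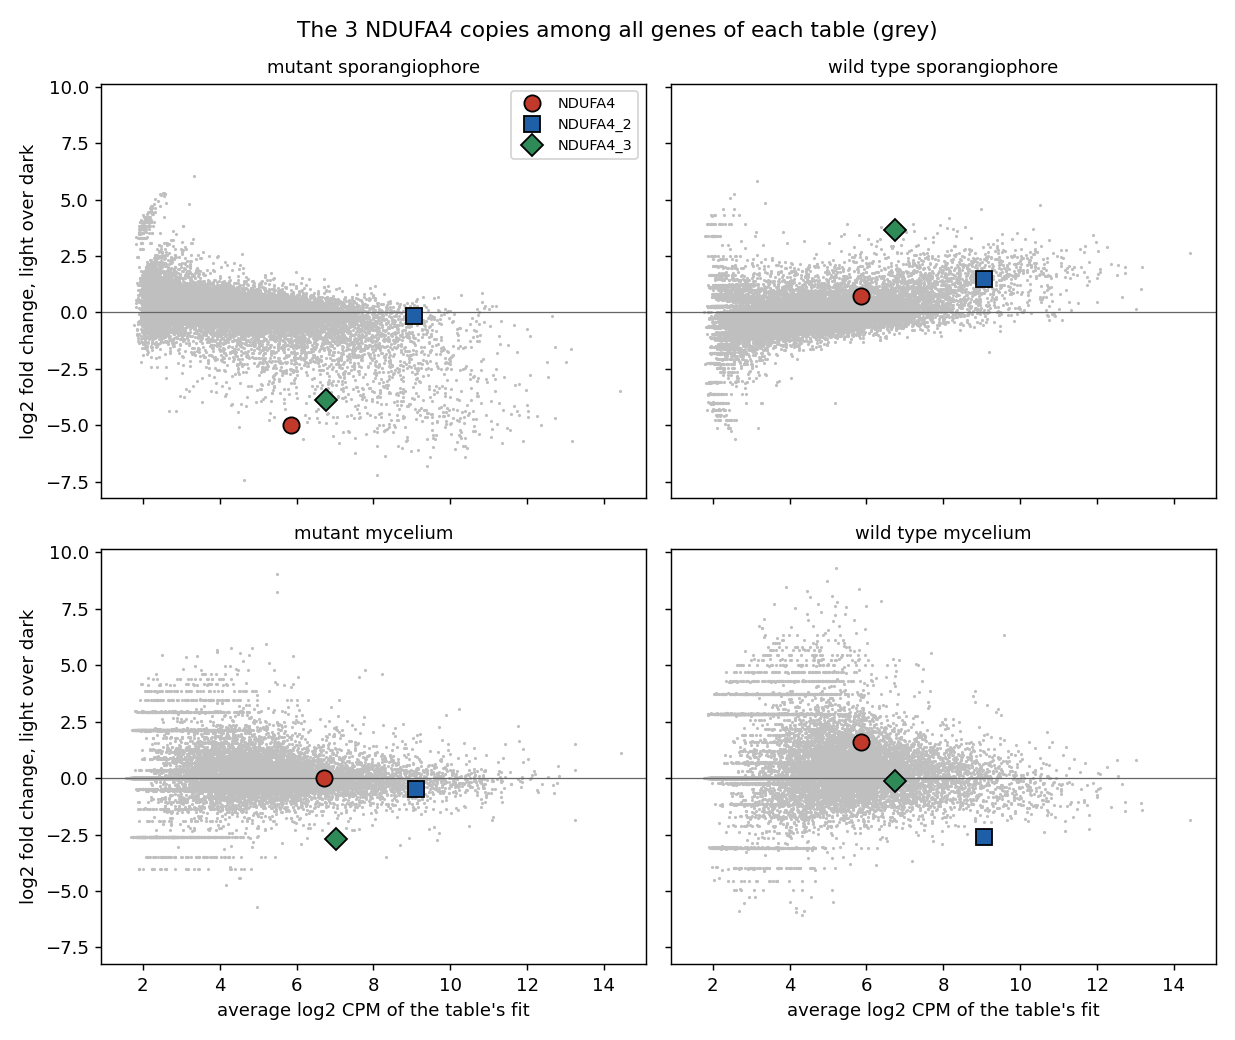
Each panel plots the log2 fold change of light over dark against the average log2 CPM for all genes of a table (grey points), with the 3 copies as coloured symbols. In mutant sporangiophores NDUFA4 lies below the genes of its level at -4.97 and NDUFA4_3 near their lower edge at -3.90, NDUFA4_3 lies at its upper edge in wild type sporangiophores at 3.65, and NDUFA4_2 lies at its lower edge in wild type mycelium at -2.61.

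Set against each other within a table, some of the copies lay far apart, as their choice made likely, and others lay within their errors. In mutant sporangiophores NDUFA4 minus NDUFA4_2 was -4.81 log2 units (approximate SE 0.60) and NDUFA4 minus NDUFA4_3 was -1.07 (SE 0.63), so NDUFA4 and NDUFA4_3 lay within 2 SE of each other. NDUFA4_2 lay apart from both, with NDUFA4_2 minus NDUFA4_3 at 3.74 (SE 0.71). In wild type sporangiophores NDUFA4_3 lay apart from NDUFA4, with NDUFA4 minus NDUFA4_3 at -2.91 (SE 0.94). NDUFA4_2 minus NDUFA4_3 was -2.19 (SE 1.08) there, barely beyond 2 SE. NDUFA4 and NDUFA4_2 differed there by -0.72 with an SE of 0.84, which is within its error. In mutant mycelium NDUFA4_2 minus NDUFA4_3 was 2.22 (SE 0.74), and NDUFA4, listed at 0, has no SE to set beside them. NDUFA4_2 was the copy apart in wild type mycelium, with NDUFA4_2 minus NDUFA4_3 at -2.49 (SE 0.52) and NDUFA4 minus NDUFA4_2 at 4.22 (SE 1.44), while NDUFA4 minus NDUFA4_3 was 1.73 (SE 1.44), within the wide error of NDUFA4. The SEs of these differences treat the copies as independent although they were measured in the same libraries, and the differences were not tested.

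Across tables, the contrasts of the copies were in part shared. The fold of NDUFA4 in mutant minus wild type sporangiophores was -5.71 (approximate SE 0.58), and that of NDUFA4_3 was -7.55 (SE 0.97). For NDUFA4_2 this difference was -1.63 (SE 0.85), within 2 SE of no difference. With the trend on expression level removed from both folds it turned to 0.88, so no direction is given for it, while it was -5.62 for NDUFA4 and -7.02 for NDUFA4_3. In mycelium the difference of mutant minus wild type was 2.13 (SE 0.61) for NDUFA4_2 and -2.57 (SE 0.67) for NDUFA4_3. Between the structures of the wild type, sporangiophore minus mycelium was 4.07 (SE 0.79) for NDUFA4_2, 3.77 (SE 0.90) for NDUFA4_3 and -0.87 (SE 1.46) for NDUFA4. The likeness of 4.07 and 3.77 depended on the setting. With the trend removed, wild type folds of NDUFA4_2 were 0.25 in sporangiophores and -2.50 in mycelium. Those of NDUFA4_3 were 3.39 and -0.35. Between the structures of the mutant, sporangiophore minus mycelium was 0.31 (SE 0.68) for NDUFA4_2 and -1.21 (SE 0.76) for NDUFA4_3. These comparisons share no libraries as the titles name them, read as above, but the mutant mycelium fold comes from another fit, and no such difference was tested.

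Other respiratory genes give the setting of these folds. The list held 84 genes of complexes I to IV and of ATP synthase, taken by the start of their symbols and without the 3 copies. In the authors' deposited table for mutant sporangiophores, 60 of the 84 were called lower, 1 higher and 23 not called, with a median log2 fold of -1.67 beside 0.05 for all genes. In that for wild type sporangiophores, 48 were called higher, 1 lower and 35 not called, with a median of 1.34 beside -0.05 for all genes. There the count depended on the setting, with 11 called higher and 1 lower once the trend on expression level was removed, and 27 higher and 0 lower under the F distribution. By the authors' edgeR test 0 of 84 were called in mutant mycelium, with 7 at an unadjusted p under 0.05, 0 called under the F distribution and a median of -0.26 beside 0. For wild type mycelium, 6 were called higher, 10 lower and 68 not called, with a median of -0.35 beside 0. With folds relative to the table median, 2 were higher and 25 lower in wild type mycelium. Of 9 genes of alternative respiratory enzymes (symbols starting AOX, NDE, NDI or NDH), 3 were called lower in mutant sporangiophores, 2 higher in wild type sporangiophores, 1 lower in mutant mycelium and 2 higher in wild type mycelium, in the authors' deposited tables.

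The calls of NDUFA4_3 in the sporangiophores of both strains had the direction of most calls in the list, and its folds were larger than most of theirs. In wild type sporangiophores its fold lay above all 84 list genes, and in mutant sporangiophores 4 of the 84 lay below it. NDUFA4 lay below all 84 in mutant sporangiophores, while in wild type sporangiophores 63 of the 84 lay above it. NDUFA4_2 was the reverse in mutant sporangiophores, where it lay above 76 of the 84 and above all 29 complex I genes of the list, of which 23 were called lower and 0 higher in the authors' deposited table. Of the 12 complex IV genes, 8 were called lower and 0 higher in mutant sporangiophores, and 6 higher and 0 lower in wild type sporangiophores, in the authors' deposited tables. Complex II had 4 of 5 genes called lower in mutant and 4 higher in wild type sporangiophores, by the same tables. Complex III had 10 of 14 lower and 8 higher there, and ATP synthase 15 of 24 lower and 13 higher. QCR1, of complex III, went the other way in both tables. It was called higher in mutant (0.80, FDR 0.0442) and lower in wild type sporangiophores (-1.02, FDR 0.0489) in the authors' deposited tables. COX6B_2, of complex IV, had -4.04 in mutant and 2.35 in wild type sporangiophores there. In wild type mycelium NDUFA4_2 lay below all 84, and in mutant mycelium 1 of the 84 lay below NDUFA4_3.

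Copies of a gene also differed in other respiratory families. The list and the NDUFA4 copies held 19 families with 2 to 4 symbol-bearing copies. The range of log2 fold within the NDUFA4 family was 4.81 in mutant and 2.91 in wild type sporangiophores, and 2.69 in mutant and 4.22 in wild type mycelium. The medians of the other 18 families were 1.27, 0.59, 0.56 and 0.86 in the same order. It ranked first of the 19 in 3 tables, but in wild type mycelium this rests on the 1.61 of NDUFA4 with its SE of 1.39. Without that entry the range there was 2.49 and QCR1 was wider. In mutant mycelium it was second to QCR1, a gene of a complex III core subunit, whose 4 copies ranged over 7.22 with 0 of the 4 called. That place rests on the fold of NDUFA4 listed at 0, without which the range was 2.22 and the place 3. A range grows with the number of copies and with their errors, and the family was chosen for this pattern, so the ranks are a description.

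In mutant sporangiophores the next widest families were ATP15, a gene of ATP synthase, with 3.26, and INH1, the gene of an inhibitor of ATP synthase, with 2.64. ATP15 had -3.52 (FDR 1.4e-09) and ATP15_2 had -0.26 (FDR 0.831) in the authors' deposited table. INH1 had -2.57 (FDR 1.7e-08) and INH1_2 had 0.08 (FDR 0.923) there. In wild type sporangiophores QCR1 ranged over 2.54 and INH1 over 2.33, with 2.67 (FDR 5.6e-07) for INH1 and 0.34 (FDR 0.719) for INH1_2 in the authors' deposited table. INH1 ranged over 2.58 in mutant mycelium, where neither copy was called. In wild type mycelium QCR1 ranged over 3.97 and NDUFA6 over 1.80, and QCR1_3, at 2.93 (FDR 6.2e-10), was called higher in the authors' deposited table.

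**Figure D4:**
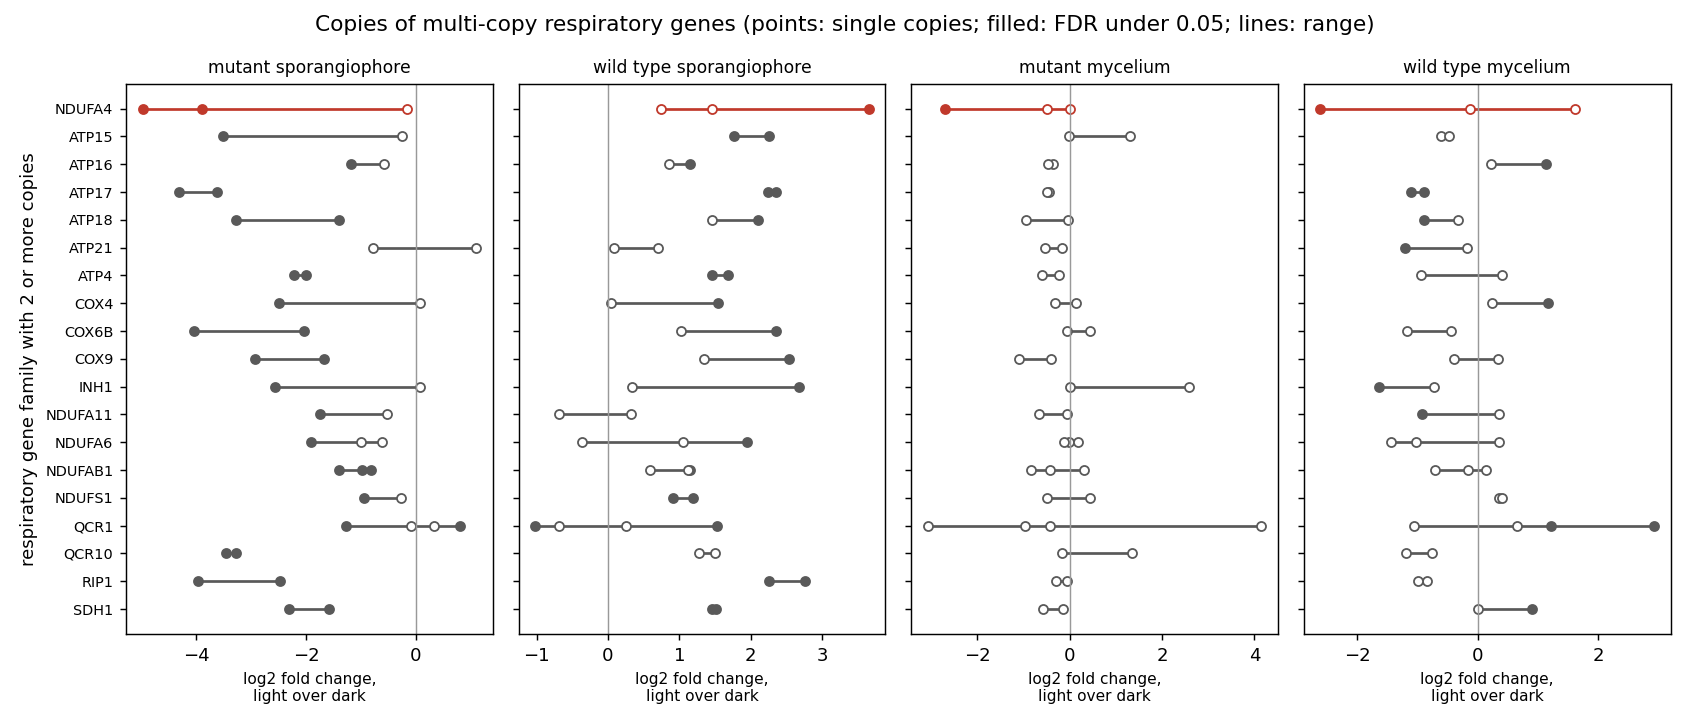
For each of 19 respiratory families with 2 or more copies, points give the log2 fold change of light over dark of each copy, filled where the FDR was under 0.05, and a line joins the lowest and highest copy. The NDUFA4 family (red, top) ranges over 4.81 in mutant and 2.91 in wild type sporangiophores, and over 2.69 in mutant and 4.22 in wild type mycelium.

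The genes most like each copy were found by the Euclidean distance of their 4 log2 folds to those of the copy, among 208 genes with a symbol and a row in all 4 tables. Folds shared with a copy follow from this choice and are only described. Nearest to NDUFA4 were Pb2oxodhE2 (distance 2.40), leuC (2.44), NDUFS7 (2.50), NUXM (2.56) and ATP5 (2.56). NDUFS7 and NUXM are symbols of complex I subunits, ATP5 of an ATP synthase subunit in yeast, and leuC of a leucine synthesis enzyme in bacteria. All 5 were called lower in mutant sporangiophores in the authors' deposited table, with folds from -4.67 for ATP5 to -2.68 for NUXM. Nearest to NDUFA4_2 were INH1_2 (1.58), Gpa1A (1.70), NDUFB7 (1.86), NDUFA6_2 (1.88) and RIM15 (1.96). NDUFB7 and NDUFA6 are complex I subunits, Gpa1 is a G protein alpha subunit in yeast, and Rim15 is a yeast protein kinase of nutrient signalling. INH1_2 (-1.64), Gpa1A (-1.44) and NDUFB7 (-1.23) were called lower in wild type mycelium in the authors' deposited table, as NDUFA4_2 was. NDUFA6_2 (-1.02) and RIM15 (-1.70) were not called there. NDUFB7 was also called lower in mutant (-1.20, FDR 0.0069) and higher in wild type sporangiophores (1.25, FDR 0.0258) in the authors' deposited tables. NDUFA4_2 was called in neither of these. Nearest to NDUFA4_3 were NDUFS4 (2.69), ATP17_2 (2.77), ATP17 (2.77), COX9 (2.78) and CytC2 (2.81), with NDUFS4 a complex I subunit and, in yeast, Atp17 an ATP synthase and Cox9 a complex IV subunit. All 5 were called lower in mutant sporangiophores, and the first 4 were called higher in wild type sporangiophores, in the authors' deposited tables. None of the 5 was called in mutant mycelium, where NDUFS4 had -0.25, ATP17_2 -0.49 and NDUFA4_3 -2.69 in the authors' deposited table.

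By the same measure no copy was among the nearest genes of another, and NDUFA4_2 lay farthest from the others. NDUFA4 and NDUFA4_3 were 4.46 apart, NDUFA4_2 and NDUFA4_3 5.46, and NDUFA4 and NDUFA4_2 6.46. Among the genes with a symbol, ordered by distance to NDUFA4, NDUFA4_3 was in place 90 and NDUFA4_2 in place 198. Ordered by distance to NDUFA4_3, NDUFA4 was in place 62 and NDUFA4_2 in place 116. From NDUFA4_2, NDUFA4_3 was in place 190 and NDUFA4 in place 197. Distances to and from NDUFA4 use its mycelium entries, one listed at 0 and the other with an SE of 1.39. Over the 2 sporangiophore tables alone NDUFA4 was 3.10 from NDUFA4_3, in place 48, and 4.86 from NDUFA4_2, in place 146. Of its 5 nearest genes, ATP5 was then first (0.91), and the other 4 lay in places 10 to 20. Among genes without a symbol at or above the median level, PHYBLDRAFT_158874 (1.04) and PHYBLDRAFT_58843 (1.06) were nearest to NDUFA4. PHYBLDRAFT_129953 (0.97) and PHYBLDRAFT_127304 (1.06) were nearest to NDUFA4_2, and PHYBLDRAFT_179681 (2.19) and PHYBLDRAFT_103652 (2.23) to NDUFA4_3. PHYBLDRAFT_158874 had -4.97 in mutant and 1.45 in wild type sporangiophores in the authors' deposited tables, and PHYBLDRAFT_127304 had -2.76 in wild type mycelium.

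**Figure D5:**
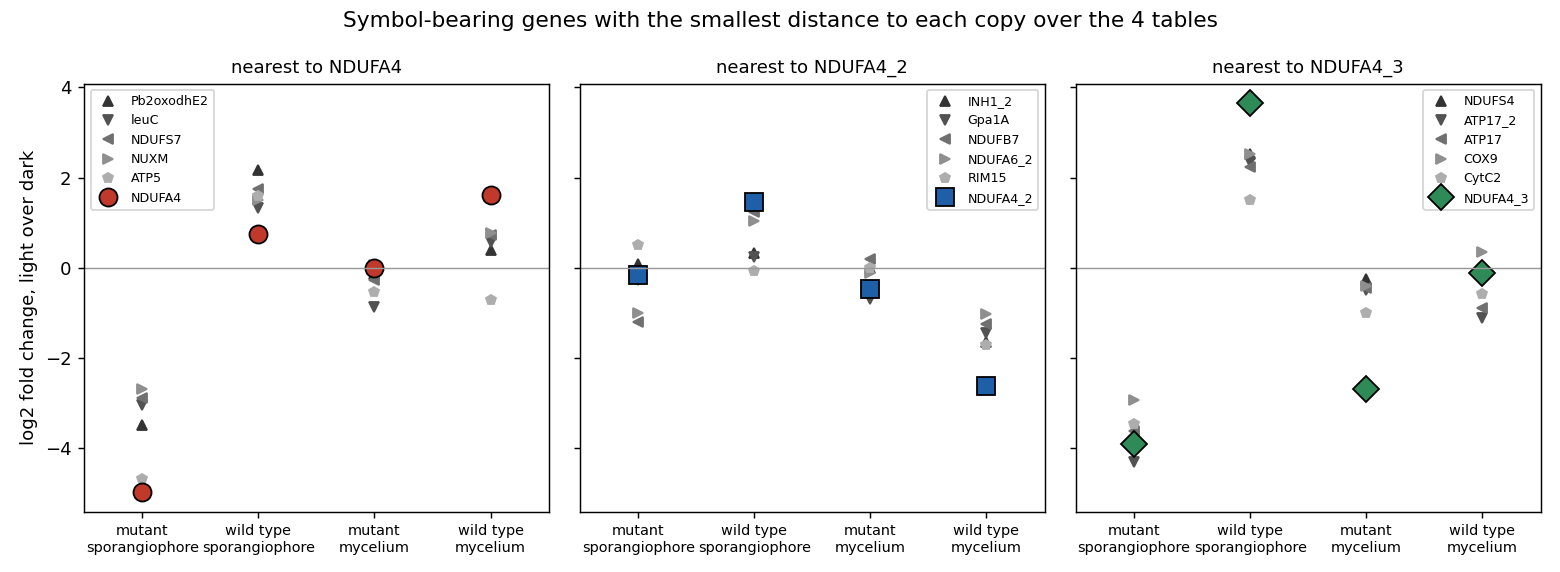
Each panel plots the log2 fold change of light over dark in the 4 comparisons for a copy (large coloured symbol) and the 5 symbol-bearing genes at the smallest distance from it (grey symbols). In mutant mycelium NDUFA4_3, at -2.69, lies below all 5 of its nearest genes, and in wild type mycelium NDUFA4_2, at -2.61, lies below all 5 of its own.

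The copies did not lie side by side in the genome annotation. In the RefSeq gene table of assembly Phybl2, 10599 genes stood between NDUFA4 and NDUFA4_2 and 3838 between NDUFA4_2 and NDUFA4_3. These counts follow the order in which genes are listed and are not distances in the genome. The span of no copy overlapped the next gene on either side. The authors' build was not given, so the table serves here for names and order alone. The genes on either side of NDUFA4, PHYBLDRAFT_92893 (0.05) and PHYBLDRAFT_75635 (0.65), were not called in mutant sporangiophores in the authors' deposited table. Beside NDUFA4_2, PHYBLDRAFT_159977 was called lower in wild type mycelium (-1.60, FDR 0.0277) and PHYBLDRAFT_188502 was not (-0.40), in the authors' deposited table. PHYBLDRAFT_188502 had -2.74 in mutant and 2.57 in wild type sporangiophores, both called in the authors' deposited tables, where NDUFA4_2 was not. Beside NDUFA4_3, PHYBLDRAFT_160884 and PHYBLDRAFT_153725 were called in none of the 4 authors' deposited tables.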

How the data were processed

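Per the labels' protocols, RNA extraction was by Trizol and a MessageAmp II kit, which amplifies RNA, was applied. Bowtie and edgeR were used, per the submitters' processing notes. Their versions, the build, the annotation and the handling of reads that match several copies are not given in the sources used here. As the file headers name them, the 4 deposited tables hold log2 fold changes and average log2 CPM, a likelihood ratio score, p-values and FDR from the authors' edgeR model. Each deposited p-value was checked to follow from its likelihood ratio by a chi-square distribution (1 degree of freedom) and each deposited FDR from the p-values of its table by the Benjamini-Hochberg method. Leaving out 4 libraries for their dispersion, per the series design text, bears on the spread the test sees.

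Row IDs were matched to the number in RefSeq locus tags of Phybl2 (14355 of 14410, 99.6%), and 208 had a symbol. The members and lists were chosen with earlier results of these data known. Computed here were the approximate standard errors with 95% intervals from the normal distribution, values of genes within 0.25 log2 CPM of a copy, respiratory lists by symbol prefix (NDUF, SDH, QCR, RIP, CYT1, COB, COX, ATP and INH, and apart from these the alternative enzymes), and families by symbol without its number ending, in any case of letters. A prefix can take in assembly factors and unrelated genes. The window of 0.25, the tally of folds of 0, the look at adjoining genes, the joining of families across letter case and the median level asked of genes without a symbol in all 4 tables were chosen after values were seen. Named were all copies, the 5 nearest genes with a symbol and 2 without, the 3 widest families in each table and, chosen after their values were seen, COX6B_2, PHYBLDRAFT_176162 and the genes beside each copy. Alternatives were an F distribution with 1 and 12 degrees of freedom, centred folds, a lowess trend on log2 CPM removed (0.3 of the genes), a minimum log2 CPM of 1 and an FDR under 0.01. Added after seeing the data were family ranges without the mycelium entries of NDUFA4, distances over the sporangiophore tables alone, and strain differences with the trend removed. The scripts, tested on simulated data, used Python 3.11.15, scipy 1.17.1 and statsmodels 0.14.6.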

Additional observations from a re-analysis of the deposited data

How the results depend on the processing

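No paired analysis was possible because the tables hold comparisons and no values per library, and for the same reason no library could be left out. Of 55 alternative values of copies with a fold other than 0, 53 kept both direction and side of the threshold. The 5 of NDUFA4 in mutant mycelium, listed at 0, have no direction to keep and were not called. Direction could change only with centred folds or the trend removed, as the other alternatives left the folds unchanged. An FDR under 0.01 could not add a call. NDUFA4_3 in mutant mycelium (-2.69) lost its call under the F distribution (adjusted p = 0.165). Its call in wild type sporangiophores held less clearly there (adjusted p = 0.0351, against an FDR of 4.2e-04 as deposited). The 12 degrees of freedom of the F distribution may not be those of either fit. NDUFA4_2 in mutant sporangiophores turned to 1.13 with the trend on expression level removed, and its mutant minus wild type difference in sporangiophores to 0.88. For these, the cause was not tested. A minimum log2 CPM of 1 removed no gene. Under the F distribution the calls over all genes were 482 in wild type sporangiophores (1212 in the tables as deposited), 10 in mutant mycelium (159) and 997 in wild type mycelium (2024), and respiratory calls were 27 in wild type sporangiophores (49) and 5 in wild type mycelium (16). With the trend removed there were 628 calls and 12 respiratory calls in wild type sporangiophores, and with centred folds 27 respiratory calls in wild type mycelium. At an FDR under 0.01 there were 736 calls in wild type sporangiophores, 64 in mutant mycelium, 1252 in wild type mycelium and 8 respiratory calls in wild type mycelium. The direction of every fold rests on the titles of the tables, and depth is unknown.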
